A study of Mus musculus with 8 samples.

Results

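The cytosolic sulfotransferases described here are 10 genes of the mouse Sult family. They are the 5 Sult1 genes Sult1a1, Sult1b1, Sult1c2, Sult1d1 and Sult1e1, the 3 Sult2a genes Sult2a1, Sult2a2 and Sult2a5, and Sult3a1 and Sult5a1. They were chosen by name, by matching gene symbols to the Ensembl identifiers in the deposited tables, from 27453 genes listed in all, and the reads of all transcripts of a gene were summed. A further 11 Sult genes are listed and were used only for comparison. The measurements come from nanopore direct RNA sequencing, in which native polyadenylated RNA molecules are read through a pore, of livers of C57BL/6JN mice, an inbred strain. Of the 8 libraries, each from a different animal, 4 are titled O and 4 are titled Y. Each set holds 2 males (replicates 1 and 2) and 2 females (replicates 3 and 4), so the 4 groups are O-titled females, Y-titled females, O-titled males and Y-titled males. The labels give no engineered allele and no treatment other than age. Libraries are called O1 to O4 and Y1 to Y4 by title letter and replicate. The labels contradict each other on age. By the age field the O-titled mice were 12 weeks old and the Y-titled mice 80 weeks old, while the treatment field speaks of old mice as the treated group and the series text of mice of about 2 and about 18 months. Groups are therefore named by title, and no age is attached to either.

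Cytosolic sulfotransferases move a sulfonate group from the donor PAPS (3′-phosphoadenosine-5′-phosphosulfate) to a hydroxyl or amino group, which makes the product more soluble in water and easier to excrete. The Sult1 enzymes act mainly on phenols, among them drugs, catechols, thyroid hormones and oestrogens, and the Sult2a enzymes act on hydroxysteroids and bile acids. In rodent liver several members are known to differ between the sexes under the control of growth hormone, whose secretion pattern differs between females and males.

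The libraries held between 545171 and 2593200 mapped reads. At these depths 3 reads, used as the floor of detection, corresponded to between 1.16 and 5.50 reads per 1000000 mapped reads (CPM). Xist had between 32 and 53 reads in females and at most 3 in males, and the 4 Y-linked genes looked up (Ddx3y, Eif2s3y, Kdm5d and Uty) together had reads in every male and 0 in every female, which matched the sex labels. Major urinary protein (Mup) genes, which are abundant in male liver, took 0.287% of mapped reads in O3 and between 3.04% and 4.65% in the other females, against between 6.73% and 13.5% in males. The defining markers of hepatocytes (Alb, Apoa1, Ttr, Cps1 and Serpina1c) had reads in every group, and their summed level lay between 68403 and 115164 CPM in females and between 76660 and 98759 CPM in males.

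The genes lie on few chromosomes of the mm10 build (GENCODE release M21 positions). Sult1b1, Sult1d1 and Sult1e1 are neighbours on the minus strand within 78.3 kb of chromosome 5, from 87513339 to 87591594. Sult2a5 (13623967 to 13670807, plus strand), Sult2a2 (13733505 to 13779636, plus strand) and Sult2a1 (13796246 to 13837409, minus strand) lie side by side at the start of the Sult2a cluster on chromosome 7, which holds 8 listed genes within 870 kb. Sult1a1 is elsewhere on chromosome 7 (126672865 to 126676432), Sult3a1 on chromosome 10 (33857721 to 33879532), Sult1c2 on chromosome 17 (53829637 to 53846339) and Sult5a1 on chromosome 8 (123140192 to 123158315).

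The 3 Sult2a members are near-identical in sequence, which bears on how reads can be told apart. Of the other genes of the cluster, Sult2a3 was 93.7% identical to Sult2a1, Sult2a7 82.2% and Sult2a8 73.6%. In the annotated coding sequence Sult2a2 differed from Sult2a1 at 12 of 582 aligned bases (97.9% identity), and Sult2a5 differed from Sult2a1 at 44 of 855 (94.9% identity). The annotated coding sequence of Sult2a2 has only 582 bases, so the rest of the 855 of Sult2a1 was not compared. How reads matching more than 1 transcript were assigned is not given in the sources used here, so the split of reads among Sult2a genes is uncertain. The first 90 coding bases are shown because they hold almost no difference. Capitals mark bases that differ from Sult2a1, of which Sult2a2 has 0 and Sult2a5 has 1.
Sult2a1: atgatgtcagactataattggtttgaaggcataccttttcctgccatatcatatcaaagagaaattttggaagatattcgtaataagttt
Sult2a2: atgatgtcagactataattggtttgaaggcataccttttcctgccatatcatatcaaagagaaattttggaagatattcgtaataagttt
Sult2a5: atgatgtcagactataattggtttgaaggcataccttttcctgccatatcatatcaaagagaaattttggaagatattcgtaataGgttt

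The stretch of 90 coding bases with the most differences among the members, from base 347 to base 436, is shown for contrast with the first. Here Sult2a2 had 2 and Sult2a5 had 9 bases that differed from Sult2a1, again in capitals.
Sult2a1: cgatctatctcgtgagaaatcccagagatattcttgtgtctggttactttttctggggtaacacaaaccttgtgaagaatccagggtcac
Sult2a2: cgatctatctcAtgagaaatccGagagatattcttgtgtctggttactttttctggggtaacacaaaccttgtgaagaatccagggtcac
Sult2a5: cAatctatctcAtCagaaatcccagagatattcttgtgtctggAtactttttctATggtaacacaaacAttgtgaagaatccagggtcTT

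Promoter windows from RefSeq on GRCm38 (the assembly of mm10), from 250 bases before to 50 after the start site, were given for 8 of the 10 members. A set of 4 windows is shown, for Sult2a5, Sult1a1 and Sult1d1, which differed between groups, and for Sult3a1, whose difference between the sexes did not pass the test. All windows of members were searched on both strands for the letters of 5 motifs, and the share of all 32851 windows with each was counted. The STAT5 or BCL6 motif TTCNNNGAA was in 8.3% of the windows. A nuclear receptor half-site, spelled AGGTCA, was in 16.3%. The C/EBP letters TTGCNNAA were in 10.8%. The HNF6 core ATTGAT was in 7.54%, and the TATA box, written TATAAA, was in 13.6%. The members had 9 windows, as Sult1b1 had more than 1. Of these 9, the STAT5 or BCL6, C/EBP and HNF6 letters were each in 1. The half-site and TATA letters were each in 2. Capitals mark matches, which describe letters only. The Sult3a1 window, chr10:33857472-33857771 on the plus strand, holds TTCNNNGAA from 109 to 101 bases and ATTGAT from 74 to 69 bases before the start.
Sult3a1: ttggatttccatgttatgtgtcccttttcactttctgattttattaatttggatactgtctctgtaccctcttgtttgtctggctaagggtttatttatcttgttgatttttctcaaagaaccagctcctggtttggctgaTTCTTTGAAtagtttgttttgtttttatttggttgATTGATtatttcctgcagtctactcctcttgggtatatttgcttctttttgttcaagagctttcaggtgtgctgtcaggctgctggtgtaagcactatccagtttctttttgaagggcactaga

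The Sult2a5 window, chr7:13623717-13624016 on the plus strand, holds TATAAA in the 6 bases before the start.
Sult2a5: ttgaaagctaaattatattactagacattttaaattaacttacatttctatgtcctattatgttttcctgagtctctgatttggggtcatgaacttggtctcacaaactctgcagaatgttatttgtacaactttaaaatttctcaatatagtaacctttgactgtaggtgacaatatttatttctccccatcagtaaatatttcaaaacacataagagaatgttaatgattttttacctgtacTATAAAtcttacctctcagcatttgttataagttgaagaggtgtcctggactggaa

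The Sult1d1 window, chr5:87568957-87569256 on the minus strand, holds TATAAA on the opposite strand from 6 to 11 bases after the start.
Sult1d1: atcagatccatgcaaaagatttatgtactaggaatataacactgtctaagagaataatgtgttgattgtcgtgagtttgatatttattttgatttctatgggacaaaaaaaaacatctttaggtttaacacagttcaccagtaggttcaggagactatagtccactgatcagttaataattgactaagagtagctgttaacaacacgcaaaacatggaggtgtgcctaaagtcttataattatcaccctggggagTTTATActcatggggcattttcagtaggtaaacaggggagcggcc

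The Sult1a1 window, chr7:126676369-126676668 on the minus strand, holds none of these letters.
Sult1a1: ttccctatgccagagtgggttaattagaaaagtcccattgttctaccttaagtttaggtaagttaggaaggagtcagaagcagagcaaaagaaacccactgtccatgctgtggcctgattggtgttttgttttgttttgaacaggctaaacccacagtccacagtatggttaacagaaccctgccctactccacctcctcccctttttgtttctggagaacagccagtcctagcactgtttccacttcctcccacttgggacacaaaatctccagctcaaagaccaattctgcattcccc

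Of the 10 members, 8 had enough reads for the count test and 2, Sult1c2 and Sult1e1, did not. Levels are given as CPM, scaled between libraries by the trimmed mean of M values, with no scaling by transcript length, so they compare libraries and not genes. Adjusted p values come from edgeR's quasi-likelihood test with Benjamini-Hochberg adjustment over all 7668 genes tested, and a gene is said to differ, rise or fall only at 0.05 or less.

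Females differed from males in 5 of the 8 tested members, all higher in females, namely Sult2a1, Sult2a2, Sult2a5, Sult1a1 and Sult1d1. Over all genes tested, 3% differed between the sexes and 1.79% were higher in females. The difference took 2 forms. The 3 Sult2a members were plentiful in females and at or near 0 reads in males, whereas Sult1a1 and Sult1d1 were read in every library at higher levels in females.

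Sult2a1, a hydroxysteroid and bile acid sulfotransferase, had 843 and 1879 reads in O-titled females, 248 and 219 reads in Y-titled females, 1 and 0 reads in O-titled males and 0 and 0 reads in Y-titled males. As levels these were 728 and 1306 CPM in O-titled females and 225 and 194 CPM in Y-titled females, against at most 0.382 CPM in a male library. Every female library was far above every male library. Over all libraries the ratio of 3189 reads in females to 1 read in males was 3613 per unit of depth (exact binomial 95% interval 648 to 142733, counting error only), and the adjusted p was 5.88e-11.

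Sult2a2, its neighbour, had 1291 and 1972 reads in O-titled females and 451 and 535 reads in Y-titled females, against 2 and 1 reads in O-titled males and 0 and 0 reads in Y-titled males. The levels were 1116 and 1371 CPM in O-titled females and 410 and 474 CPM in Y-titled females. The sexes did not overlap, as for 6.53% of all genes tested, and 4249 reads in females to 3 in males gave a ratio of 1604 (549 to 7783, adjusted p = 5.15e-17).

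Sult2a5, the least read of the Sult2a members, had 111 and 189 reads in O-titled females, 18 and 25 reads in Y-titled females, 1 and 0 reads in O-titled males and 0 and 0 reads in Y-titled males. All 4 females were again above all males. The ratio of 343 reads in females to 1 in males was 389 (69.3 to 15391, adjusted p = 5.88e-11). Each Sult2a member thus had 0 to 2 reads in a male library, under the floor of 3 reads. The point values of the ratios of Sult2a1, Sult2a2 and Sult2a5 rest on these few male reads and are not measured folds. The uncertain split of reads among the Sult2a members adds to this. In these whole-liver samples, fewer cells with a transcript and less of it per cell cannot be told apart.

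Sult3a1, an amine sulfotransferase, was also read in females only. It had 7 and 85 reads in O-titled females and 167 and 96 reads in Y-titled females, against 0 in all 4 male libraries. Set against the floor of 3 reads over the male group, the 355 reads pooled over females gave a ratio of at least 134. This is a pooled value and not a measured fold, and it is no bound for a single female. The 4 females ran from 6.05 to 152 CPM, and with this spread the adjusted p of females over males was 0.400. The call depended on the test and on single libraries. DESeq2 gave an adjusted p of 2.59e-06, and edgeR gave 0.000371 without O3 and 0.0112 without O4.

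**Figure D1:**
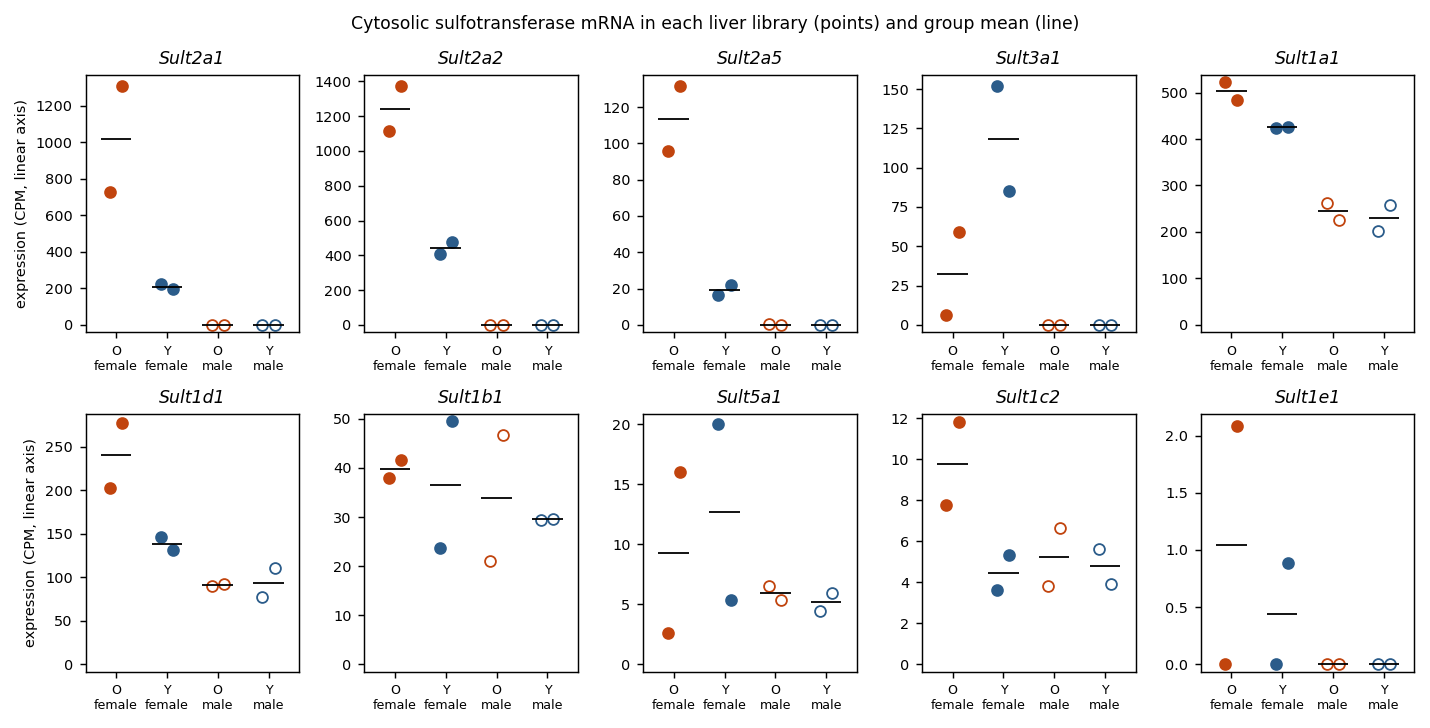
Level (CPM, linear axis) of each of the 10 members in each library (points; filled for females, open for males; O red, Y blue) with group means (lines), 2 libraries a group. The Sult2a members stand at 0 or near it in all 4 males and at their highest in O-titled females, while Sult1a1 and Sult1d1 are present in every library at higher levels in females.

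Sult1a1, the main phenol sulfotransferase of liver, stood at 523 and 484 CPM in O-titled females, 424 and 426 CPM in Y-titled females, 263 and 226 CPM in O-titled males and 203 and 258 CPM in Y-titled males. The lowest female was well above the highest male. The means were 464 ± 47.9 CPM in females and 237 ± 28.5 CPM in males (SD, n = 4 each), a log2 fold change of 0.97 (SE 0.114, adjusted p = 1.65e-05). Its reads were shared by 2 transcripts, and ENSMUST00000106372 held between 50.3% and 58.0% of them in every library, with no split by sex or title. Sult1d1, which acts on catecholamines in the mouse, stood at 203 and 278 CPM in O-titled females, 146 and 131 CPM in Y-titled females, 89.8 and 92.1 CPM in O-titled males and 77.2 and 110.3 CPM in Y-titled males. All females were above all males, with means of 190 ± 66.6 CPM in females and 92.3 ± 13.7 CPM in males (SD, n = 4 each) and a log2 fold change of 1.04 (SE 0.176, adjusted p = 0.00302).

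No other Sult1 gene passed. Sult1b1, which acts on thyroid hormones and phenols, stood at 38.0 and 41.7 CPM in O-titled females, 23.6 and 49.6 CPM in Y-titled females, 21.0 and 46.7 CPM in O-titled males and 29.5 and 29.5 CPM in Y-titled males. These groups overlap, and the log2 fold change of females over males was 0.39 (SE 0.264, adjusted p = 0.659). Sult1e1, the oestrogen sulfotransferase and the neighbour of Sult1d1 on chromosome 5, had 3 reads in O4, 1 read in Y4 and 0 in the other 6 libraries, which was not above the floor in any library. Its exact two-sided permutation p of females over males was 0.429, where the smallest p that 4 against 4 allows is 0.0286. Sult1c2 had 9 and 17 reads in O-titled females, 4 and 6 in Y-titled females, 10 and 5 in O-titled males and 9 and 2 in Y-titled males, and the same exact test gave 0.371 for females over males. Sult5a1 had 85 reads in all, at 2.59 and 16.0 CPM in O-titled females, 19.98 and 5.32 CPM in Y-titled females, 6.50 and 5.34 CPM in O-titled males and 4.39 and 5.91 CPM in Y-titled males. O3 was the lowest and Y3 the highest library of this gene, both of them female, and the log2 fold change of females over males was 0.96 (SE 0.531, adjusted p = 0.529).

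The O-titled and Y-titled libraries differed in 3 of the 8 tested members with sex as a covariate, namely Sult2a1, Sult2a2 and Sult2a5, all higher in O. Over all genes tested, 4.06% differed and 2.18% were higher in O. The log2 fold changes were 2.28 for Sult2a1 (SE 0.227, adjusted p = 3.42e-05), 1.51 for Sult2a2 (SE 0.168, adjusted p = 1.55e-05) and 2.56 for Sult2a5 (SE 0.249, adjusted p = 3.43e-06). Sult1d1 (0.44, adjusted p = 0.207), Sult1a1 (0.18, adjusted p = 0.490), Sult1b1 (0.06), Sult5a1 (-0.09) and Sult3a1 (-1.78) did not pass. Males had at most 2 reads of each of these 3 genes in a library, so these calls come from the female libraries. Within females 4 of the 8 rose in O-titled libraries, the same 3 and Sult1d1, where 5.06% of all genes differed and 2.53% rose. Within males 0 of the 8 differed at an adjusted p of 0.05 or less, where 1.4% of all genes did. None was called there by DESeq2 or limma voom either, and 0 had an unadjusted p under 0.05. Sult2a1, Sult2a2, Sult2a5 and Sult3a1 had too few reads in males for this comparison to show a difference. It therefore speaks only for Sult1a1, Sult1b1, Sult1d1 and Sult5a1. The median log2 fold change of O over Y in females was 0.52 over the 8 members and 0.0031 over all genes. Over both sexes it was 0.31 over the members and 0.0055 over all genes. These medians are descriptions without a test. The 8 members are not separate measurements, because the split of reads among the Sult2a members is uncertain. Sult2a1, Sult2a2, Sult2a5 and Sult3a1 also passed the count filter through females alone.

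The log2 fold change of O over Y in females was 2.28 for Sult2a1 (SE 0.284, adjusted p = 0.00542), with 1017 ± 408 CPM in O-titled females and 210 ± 22.1 CPM in Y-titled females (SD, n = 2 each). Both O-titled females were above both Y-titled females. The call was lost without Y3 (log2 fold change 2.38, adjusted p = 0.121) and without Y4 (2.17, adjusted p = 0.128). Sult2a2 rose by 1.49 (SE 0.154, adjusted p = 2.45e-06), with 1243 ± 180 CPM in O-titled females and 442 ± 45.5 CPM in Y-titled females (SD, n = 2 each). Sult2a5 rose by 2.56 (SE 0.258, adjusted p = 1.75e-06), with 95.9 and 131 CPM in O-titled females against 16.3 and 22.1 CPM in Y-titled females. Among all genes tested, both O-titled females lay on 1 side of both Y-titled females in 45.7%, so the lack of overlap by itself says little.

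Sult1d1 was higher in O-titled females by 0.80 on the log2 scale (SE 0.182, adjusted p = 0.0106), with 241 ± 53.0 CPM in O-titled females and 139 ± 10.7 CPM in Y-titled females (SD, n = 2 each). In males it stood at 91.0 ± 1.58 CPM in O-titled males and 93.7 ± 23.4 CPM in Y-titled males (SD, n = 2 each), a log2 fold change of 0.01. The call depended on single libraries. It was lost without O4 (log2 fold change 0.54, adjusted p = 0.173), without Y3 (0.86, adjusted p = 0.0638), without Y4 (0.72, adjusted p = 0.131) and by DESeq2 (0.79, adjusted p = 0.0671). The difference of the sexes' fold changes was itself tested and was 0.79 (SE 0.274, adjusted p = 0.392), and of all genes tested 0.339% passed it. Of Sult1a1, Sult1b1, Sult1d1 and Sult5a1, 0 passed this test by edgeR, DESeq2 or limma voom, and 1, Sult1d1, had an unadjusted p under 0.05. For Sult2a1, Sult2a2, Sult2a5 and Sult3a1 that test has nothing to compare with in males, and no value is given. Sult1a1 had a log2 fold change of O over Y of 0.24 in females (SE 0.150, adjusted p = 0.478) and of 0.11 in males (SE 0.157, adjusted p = 0.900), neither past the threshold. Its values were apart in females but overlapped in males.

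Sult3a1 had its higher values in Y-titled females, with 6.05 and 59.1 CPM in O-titled females against 152 and 85.0 CPM in Y-titled females. The log2 fold change of O over Y in females was -1.78 (SE 1.15, adjusted p = 0.654), so no change was shown. Limma voom gave -2.38 (adjusted p = 0.0459), and without O4 edgeR gave -4.27 (adjusted p = 0.00713). Sult1b1 (log2 fold change 0.12) and Sult5a1 (-0.36) did not pass in females. Sult1c2 had 26 reads in O-titled and 10 in Y-titled females, and over all libraries its exact p of O over Y was 0.143, and 0.0286 without O1.

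**Figure D2:**
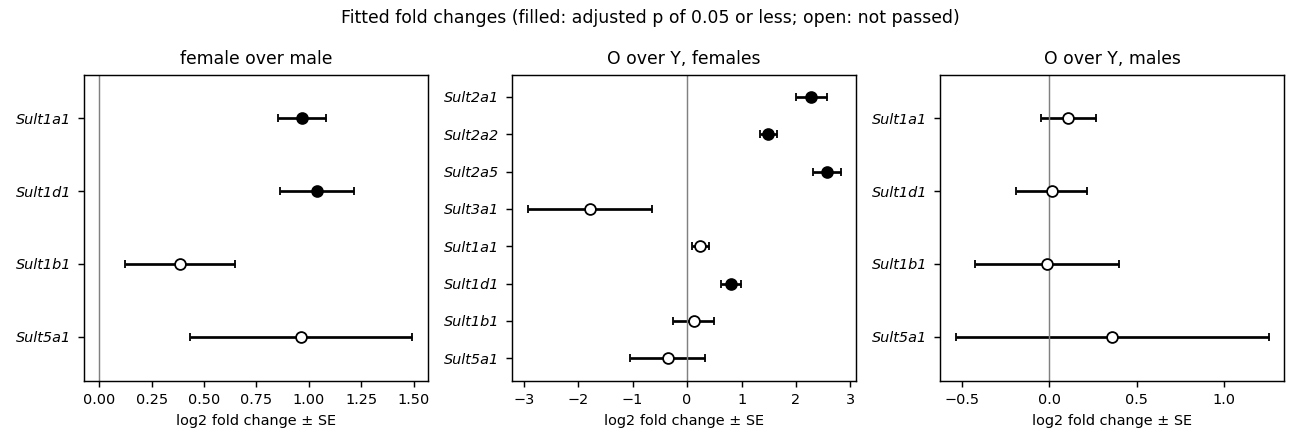
Fitted log2 fold changes with standard errors from edgeR for the members with reads in both groups: females over males, O over Y in females and O over Y in males. Filled points passed an adjusted p of 0.05 and open points did not; in females Sult2a5 (2.56), Sult2a1 (2.28), Sult2a2 (1.49) and Sult1d1 (0.80) passed.

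Summed by subfamily, the Sult2a members stood at 1940 and 2808 CPM in O-titled females, 651 and 690 CPM in Y-titled females, 1.53 and 1.33 CPM in O-titled males and 0 and 0 CPM in Y-titled males. The 5 Sult1 members together stood at 772 and 818 CPM in O-titled females, 598 and 613 CPM in Y-titled females, 378 and 371 CPM in O-titled males and 315 and 402 CPM in Y-titled males. The Sult1 sums varied far less across the 4 groups than the Sult2a sums. As a share of the reads of the 10 members, Sult2a reads made up 71.3% (exact 95% interval 69.7 to 72.9) and 75.9% (74.7 to 77.0) in O-titled females and 45.8% (43.4 to 48.4) and 49.5% (47.02 to 52.02) in Y-titled females. In O-titled males they made up 0.396% (0.108 to 1.01) and 0.353% (0.00895 to 1.95). In Y-titled males they were 0 of 509 and 0 of 207 reads, with exact 95% upper bounds of 0.722% and 1.77%, and the floor of 3 reads would be 0.589% and 1.45%. Sult3a1 held 0.222% and 1.60% of these reads in O-titled females, against 10.7% and 6.10% in Y-titled females. These shares are of reads, are not scaled by length and have no test. They leave out Sult2a8, which is not among the 10. Sult2a8 had 1473 and 507 reads in O-titled males and 1298 and 338 reads in Y-titled males. In females it had 63 and 369 reads in O-titled and 528 and 558 reads in Y-titled libraries. The low shares in males therefore hold for the 3 Sult2a members and not for all Sult2a genes.

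**Figure D3:**
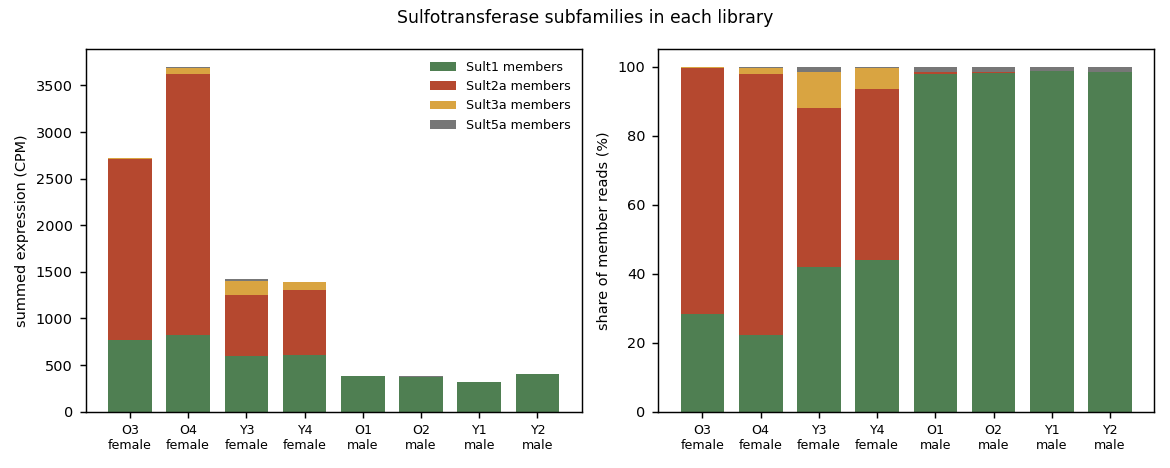
Summed level (left, CPM) and share of the members' reads (right, %) of the Sult1, Sult2a, Sult3a and Sult5a members in each library (bars, stacked). The Sult2a members make up 71.3% and 75.9% in O-titled females, 45.8% and 49.5% in Y-titled females and at most 0.396% in males. Sult2a8, which is read in every male library, is not a member and is not counted.

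Within the Sult2a reads of females, Sult2a1 held 37.6% and 46.5% in O-titled and 34.6% and 28.1% in Y-titled libraries, Sult2a2 held 57.5% and 48.8% in O-titled and 62.9% and 68.7% in Y-titled libraries, and Sult2a5 held 4.94% and 4.68% in O-titled and 2.51% and 3.21% in Y-titled libraries. Other genes of the same cluster, which are not among the 10, had other patterns. Sult2a8, a bile acid sulfotransferase of mouse liver, stood at 54.4 and 256 CPM in O-titled females, 480 and 494 CPM in Y-titled females, 563 and 677 CPM in O-titled males and 814 and 666 CPM in Y-titled males. All its male values were above its female values, and its log2 fold change of females over males was -1.28 (SE 0.559, adjusted p = 0.461). Sult2a3 was read in females alone, at 14.7 and 229 CPM in the O-titled mice and 0.908 and 3.54 CPM in the Y-titled mice. Sult2a7 stood at 5.18 and 119 CPM in O-titled females, 2.72 and 1.77 CPM in Y-titled females, 8.03 and 12.0 CPM in O-titled males and 1.25 and 1.97 CPM in Y-titled males. The deposited tables list 0 reads for Sult2a6.

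**Figure D4:**
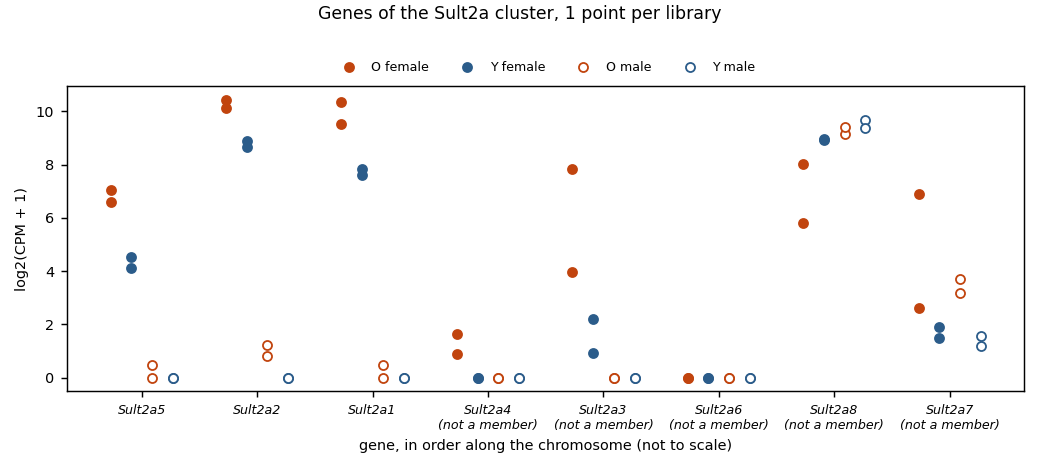
Level of each Sult2a gene as log2(CPM + 1) in each library (points; filled for females, open for males; O red, Y blue), in order along chromosome 7 and not to scale. Sult2a5, Sult2a2 and Sult2a1 are present in females and near 0 in males, while Sult2a8 is present in all 8 libraries.

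The length of the reads assigned to each gene was compared with the annotated transcript in females. The median was between 1062 and 1072 bases for Sult2a1, whose transcript has 1020, and between 799 and 806 bases for Sult2a2, whose transcript has 741. Neither differed between O-titled and Y-titled females by more than 10 bases. For Sult2a5, with a transcript of 1046 bases, the median was 1040 and 958 bases in O-titled females and 352 and 316 bases in Y-titled females. The level of Sult2a5 and the length of its reads moved together, over 300 reads in O-titled and 43 in Y-titled females. The part of read length in the Sult2a5 difference was not tested.

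**Figure D5:**
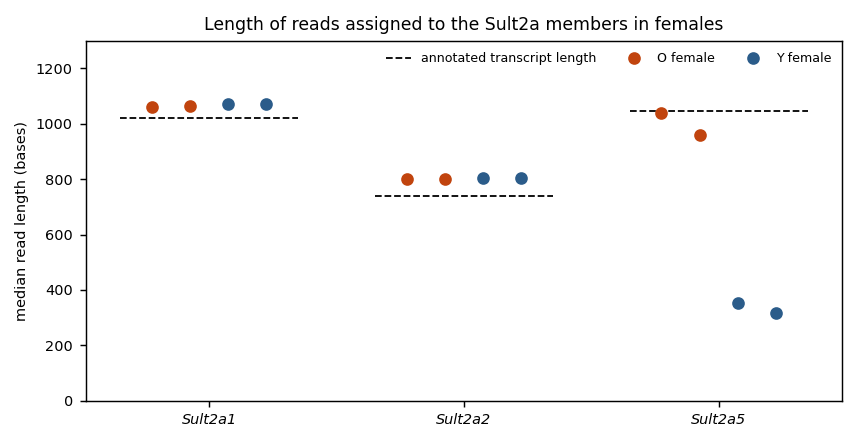
Median length in bases of the reads assigned to Sult2a1, Sult2a2 and Sult2a5 in each female library (points; O red, Y blue) with the annotated transcript length (dashed line). The Sult2a5 medians are 1040 and 958 bases in O-titled females and 352 and 316 bases in Y-titled females.

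Genes that share the pattern of these members across the 8 libraries were sought by the root mean square difference of centred log2(CPM + 1). There were 7470 candidates, and the 3 nearest were taken. Centring removes the level of a gene, so near genes can differ widely in level. The nearest to Sult2a1 was A1bg (0.302), which was also the nearest to Sult2a2 (0.488). Cyp3a41a was among the 3 nearest to both, at 1.37 from Sult2a1 and 1.31 from Sult2a2. A1bg averaged 1247 CPM in O-titled females, 349 CPM in Y-titled females, 0.382 CPM in O-titled males and 0 CPM in Y-titled males. Nearest to Sult2a5 were Xist (0.922), Slc22a26 and Acot3. Nearest to Sult1a1 were Yod1 (0.131), Rtn4 and Cavin2, and nearest to Sult1d1 were Trim30a (0.206), Cavin2 and Tspan15. These distances are descriptions. They rest on 8 libraries in which females and males lie far apart, and they carry no test.

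The supply of the sulfonate donor was read from a list of 22 genes of sulfate activation and transport, of which 19 were found and 14 tested. Of these, 2 were higher in females, 1 was lower and 11 did not pass. Of all genes tested, 3% differed between the sexes, 4.06% between O and Y, 5.06% between O and Y in females and 1.4% in males. The list was not tested as a set. Papss2, the PAPS synthase of liver, was higher in females, at 186 ± 60.7 CPM in females and 93.0 ± 29.0 CPM in males (SD, n = 4 each, log2 fold change 0.99, adjusted p = 2.75e-04). Sqor, which oxidises sulfide, was higher (0.52, adjusted p = 0.0158), and Csad, an enzyme of taurine synthesis, was lower (-1.21, adjusted p = 0.00309). Between O and Y, 2 rose and 1 fell. Papss2 rose by 0.65 (adjusted p = 0.0130), Sqor rose by 0.44 (adjusted p = 0.0355) and Ethe1, a persulfide dioxygenase, fell by 0.89 (adjusted p = 0.0232). Within females Papss2 (0.69) and Sqor (0.63) rose, and Bpnt1, which removes the PAP product of sulfonation, fell by 0.80, Cdo1, cysteine dioxygenase, by 0.70 and Ethe1 by 1.29. Within males 0 of 14 differed by edgeR, DESeq2 or limma voom, and 2 had an unadjusted p under 0.05. Papss2 and Csad kept their sex difference under all 13 alternatives tried, and Sqor lost it without O1, O2 or O4. Ethe1 did not pass between O and Y without Y2, Y3 or Y4 or under the replicate block. Papss2 did not pass between O and Y without O4 or without Y3, and in females it passed under 8 of 14 alternatives, not by DESeq2 or limma voom. Sqor passed between O and Y under 6 of 14 and Bpnt1 in females under 8 of 14, while Cdo1 in females was lost without O3, Y3 or Y4 and Ethe1 in females without O4 or Y4. Papss1, the other PAPS synthase, stood at 13.7 CPM in females and 8.96 CPM in males and did not pass.

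Of 7 sulfatase genes tested, which remove sulfate groups, Arsa (arylsulfatase A) was lower in females at 7.28 ± 4.18 CPM, against 25.8 ± 5.61 CPM in males (SD, n = 4 each, log2 fold change -1.89, adjusted p = 0.000602), and 0 differed between O and Y by edgeR, DESeq2 or limma voom (2 at an unadjusted p under 0.05). Of 5 other sulfotransferase genes tested, 0 differed in any comparison by edgeR, with 1 of them at an unadjusted p under 0.05 between O and Y. DESeq2 called 1 of them between O and Y and 1 in females, and limma voom called 1 in females. Of 27 regulators tested, 3 were higher in females and 1 was lower. For these lists too, the shares over all genes tested were 3% between the sexes and 4.06% between O and Y. Within females the share was 5.06% and within males 1.4%. No list was tested as a set, so the calls below are of single genes. Cish, a suppressor of cytokine signalling induced by growth hormone, was higher by 2.03 (adjusted p = 0.0462), Trim24, a transcription cofactor, by 1.31 (adjusted p = 0.00498) and the xenobiotic receptor Nr1i2 by 0.60 (adjusted p = 0.0414), while the growth hormone receptor Ghr was lower (-0.40, adjusted p = 0.0392). Between O and Y, Socs2, another suppressor induced by growth hormone, fell by 2.73 (adjusted p = 0.0431), and Trim24 rose by 0.97 (adjusted p = 0.0385). In females Socs2 fell by 3.61 (adjusted p = 0.000998), to 5.28 ± 3.53 CPM in O-titled libraries against 62.6 ± 33.4 CPM in Y-titled libraries (SD, n = 2 each), and Hnf4a, a transcription factor of hepatocytes, fell by 0.56 (adjusted p = 0.0329). In males Nr0b2, a nuclear receptor repressor, fell by 2.11 (adjusted p = 0.00397), a call lost without O1. The calls of Arsa, of Trim24 between the sexes and of Socs2 in females held under every alternative tried. Nr1i2 and Ghr each passed under 4 of 13 alternatives, Cish under 6 of 13, Trim24 between O and Y under 4 of 14, Socs2 between O and Y under 9 of 14 and Hnf4a in females under 8 of 14.

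Summed markers of 4 of 6 liver cell type lists also stood apart between O-titled and Y-titled females, as single values did for 45.7% of all genes tested. The 5 Kupffer and macrophage markers summed to between 453 and 605 CPM in O-titled females, against 339 and 340 CPM in Y-titled females. The 5 stellate markers summed to between 218 and 243 CPM in O-titled females and between 158 and 170 CPM in Y-titled females, and the 5 hepatocyte markers to between 68403 and 85655 CPM in O-titled females and between 94212 and 115164 CPM in Y-titled females. Of the hepatocyte markers Ttr fell by 0.54 and Serpina1c by 0.50 in O-titled females, calls that held under 9 and 7 of 14 alternatives. Cps1 had a log2 fold change of 0.49 in the other direction and did not pass (adjusted p = 0.310), with 2184 CPM in O-titled females and 1556 CPM in Y-titled females. Of the other marker lists 0 tested genes differed in females by edgeR, DESeq2 or limma voom. An unadjusted p under 0.05 was found for 2 stellate markers and for Ptprc of the T and B cell list. By edgeR 5.06% of all genes tested differed in females. Serpina1c was also lower in females than in males (log2 fold change -0.57). The stellate marker Dcn rose in O-titled libraries over both sexes (0.59), a call that held under all 14 alternatives tried, and in males (0.73), where it held under 8 of 14. The 5 T and B cell markers summed to between 20.2 and 36.3 CPM in O-titled females and between 4.54 and 12.4 CPM in Y-titled females. The endothelial sums (115 to 154 CPM in O-titled females, 151 to 156 CPM in Y-titled females) and the cholangiocyte sums (27.8 to 42.3 CPM in O-titled females, 26.6 to 43.6 CPM in Y-titled females) overlapped. The part of cell composition in the Sult2a differences was not tested.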

How the data were processed

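The authors deposited a table per library with whole-number read counts of each transcript and no normalization, and per the file headers they sum to the mapped reads of the library. Other deposited columns, per the file headers, give the lengths of the reads assigned to a transcript and were used for read length only. The submitters' processing notes name minimap2 2.24, the build mm10 and DESeq2, with no stated roles. The counting tool and annotation are not given in the sources used here.

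Here the counts of a gene's transcripts were added up and entered in edgeR 4.0.16 (R 4.3.3). The filterByExpr filter (minimum count 10, by the 4 groups of title and sex) left 7668 genes. The test was edgeR's quasi-likelihood test in its robust form after TMM scaling, with Benjamini-Hochberg adjusted p values called at 0.05. Females over males and O over Y came from an additive fit of sex and title. Differences within a sex and their interaction came from a fit of the 4 groups, with the spread shared by all 8 libraries. CPM is counts per 1000000 of the scaled library sizes. Members under the filter were compared with an exact two-sided permutation test of log2(CPM + 0.5) over the 70 assignments of 4 against 4. Ratios of reads and shares carry exact binomial 95% intervals, which cover counting error only. DESeq2 1.42.0, limma 3.58.1 voom, other scaling, no filter, Mup genes left out, leaving out each library and a replicate block were the alternatives. The test was checked on simulated data.

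All 10 members are described in every comparison. From the other lists the genes that passed are named, and 3 genes nearest in pattern per member that passed, except 1 that is not reported here. The members, lists and tests were chosen with earlier results of these data known. Within a sex and title, the counts of the 2 libraries differed beyond sampling noise (chi-square over its degrees of freedom between 3.26 and 8.35). Each library was treated as a sample. The chi-square by itself cannot tell different animals from repeated preparations of the same RNA. Age-related contrasts use title letters because the age field disagrees with them. Sequences are from GENCODE M21 transcripts and RefSeq promoter tables.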

Additional observations from a re-analysis of the deposited data

Results flagged for a closer look

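Within groups of 4 libraries, 6 of 46 groups tested had a highest library far from the other 3 by Dixon's ratio at its 95% critical value. The nominal rate of about 1 in 20 is for separate groups of like libraries, so it is no yardstick here. The O and Y groups hold both sexes, and the groups by title and by sex share libraries. Sult3a1 stood at 59.08 CPM in O4 and between 0 and 6.05 CPM in the other O-titled libraries, of which the males had 0 reads. Sult5a1 stood at 19.98 CPM in Y3 and between 4.39 and 5.91 CPM in the other Y-titled libraries. The cluster neighbours Sult2a3 and Sult2a7 stood apart in O4 both among O-titled and among female libraries. Sult2a3 was at 228.7 CPM in O4, with at most 14.7 CPM in any other library of either set. Sult2a7 was at 118.9 CPM in O4, with between 5.18 and 12.0 CPM in the other O-titled libraries and between 1.77 and 5.18 CPM in the other females.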

How the results depend on the processing

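The numbers of genes called were 230 for females over males, 311 for O over Y, 388 in females, 107 in males and 26 for the interaction. With no filter they were 401, 600, 553, 211 and 100, in that order. DESeq2 gave 194 in females and 58 in males, and limma voom gave 58 in males and 12 for the interaction. Leaving out 1 library gave 149 to 238, 186 to 339, 158 to 417, 40 to 145 and 9 to 50. The counts moved by over 1.5 times without Y1 between the sexes (149), without Y3 (200) or Y4 (186) for O over Y, without Y3 (158) or Y4 (235) in females and without O1 (40), Y1 (71) or Y2 (55) in males. The interaction gave 9 without O1, 50 without O4 and 16 each without Y2 and Y3. For the members, 12 results passed, and of 163 recomputed values 0 reversed and 6 no longer passed. Members called in females ranged from 2 (without Y3 or Y4) to 4 when 1 library was left out. Sult1d1 of O over Y passed with no filter (0.43, adjusted p = 0.0440) and without Y2 (adjusted p = 0.0324), and Sult3a1 without O4 (-4.20, adjusted p = 0.0436).

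Log2 fold changes in males changed sign for Sult1b1 by DESeq2 (0.12) and for Sult1d1 by DESeq2 (-0.0066) and with no filter (-0.0030). When 1 library was left out, members that did not pass changed sign over these ranges. For O over Y they were -0.16 to 0.31 (Sult1b1), -0.61 to 0.57 (Sult5a1) and -0.37 to 0.59 (Sult1e1). In females they were -0.33 to 0.75 (Sult1b1) and -2.24 to 0.86 (Sult5a1). In males they were -0.071 to 0.27 (Sult1a1), -0.49 to 0.66 (Sult1b1) and -0.28 to 0.22 (Sult1d1). For the interaction they were -0.037 to 0.31 (Sult1a1), -0.54 to 0.76 (Sult1b1) and -2.60 to 0.51 (Sult5a1). Of 27 calls of other listed genes, 20 were lost under at least 1 alternative. The causes were not tested.

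Deviations of O-titled and Y-titled libraries with the same replicate numbers hardly correlated (-0.044 in males and -0.0401 in females over 7668 genes). With so few libraries a group, this check cannot show whether replicate numbers share a batch. The replicate block gave 229 calls for O over Y, 330 in females, 82 in males and 35 for the interaction. It changed no call of a member. Depth limits Sult1c2, Sult1e1 and Sult5a1 most.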
